A study of Mus musculus with 12 samples.

Results

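The genes described here are the nuclear genes for subunits of the mitochondrial oxidative phosphorylation complexes, measured by RNA sequencing of the mouse hippocampus. They were chosen by name: symbols of the Nduf, Sdh, Uqcr, Cox4 to Cox8 and Atp5 families in the FPKM tables, matched by gene ID to the count table and kept where the mean over all 12 libraries was at least 5 CPM, which are counts scaled to the size of the library. The names matched 79 genes, and 71 of them were kept out of 35812 gene IDs in the count table. By the family in their names, 34 of these 71 members were placed in complex I, 4 in complex II, 8 in complex III, 8 in complex IV and 17 in complex V. Ndufa4, Atp5s and Atp5sl carry a family name that does not match their present standing, as described below. All 71 were among the 16178 genes that had enough counts to be tested.

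Oxidative phosphorylation makes most of the ATP of a neuron. Complex I takes electrons from NADH and complex II takes them from succinate, complex III passes them to cytochrome c, complex IV hands them to oxygen, and complex V, the ATP synthase, uses the proton gradient built up by complexes I, III and IV. All complexes except complex II combine nuclear-encoded subunits with subunits encoded by the mitochondrial genome, so their assembly draws on transcripts from both genomes. In the hippocampus, synaptic transmission is among the main consumers of this ATP.

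Hippocampi came from male C57BL/6 mice aged 8 weeks, with 3 independent mice in each of 4 groups. F0_Dep were mice with stress-induced depression and F0_Ctl were normal mice. F1_Dep were offspring of stress-induced depressed males, and F1_Ctl were offspring of normal males. The sources used here do not give the stress procedure, and the labels name no father or litter, so it is unknown whether mice of a group were siblings. Sequencing lanes are named for the F1_Ctl libraries only, so sequencing and group cannot be told apart for F1_Ctl. FPKM (fragments per kilobase of transcript, scaled to library size) were used for the 9 libraries of F0_Dep, F0_Ctl and F1_Dep, and F1_Ctl was analysed here in counts only.

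Total counts lay between 18277208 and 23083678 per library. Markers of dentate granule cells (10 genes) and of pyramidal neurons (9 genes) were above 0 in each library. Summed dentate granule markers were 149 to 450 CPM in F1_Dep libraries, against 712 to 878 CPM in F1_Ctl libraries. They were 613 to 827 CPM in F0_Dep and 544 to 794 CPM in F0_Ctl. Summed striatum markers (11 genes) were 356 to 1732 CPM in F1_Dep, against 285 to 355 CPM in F1_Ctl, 281 to 307 CPM in F0_Dep and 266 to 351 CPM in F0_Ctl. Choroid plexus markers (16 genes, with Clic6 and Cldn2 at 0 in some library) summed to 271 to 622 CPM in F0_Dep and 237 to 6683 CPM in F0_Ctl, and to 3771 to 6452 CPM in F1_Dep and 437 to 12669.5 CPM in F1_Ctl. The part of these marker differences in the results was not tested. Whole-tissue RNA cannot tell fewer cells of a type from less RNA per cell.

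Promoters of the members, taken from RefSeq (build GRCm38.p6), are shown because factors with known roles in respiratory chain genes, nuclear respiratory factor 1 (NRF1), the ETS protein GABPA and YY1, bind short words that can be read in them. For each complex, 1 promoter that no other of its complex exceeds in matches to the 3 words in the 200 bases before the start is printed 5′ to 3′ on the gene's own strand, with each match in capitals, also where the word lies on the other strand. They are Ndufb4, a membrane-arm subunit of complex I, at chr16:37654369-37654568, Sdha at chr13:74350241-74350440, Uqcr11 at chr10:80406822-80407021, Cox6a1 at chr5:115348959-115349158 and Atp5h, subunit d of the outer stalk of the ATP synthase, at chr11:115419920-115420119, all on the minus strand.
Ndufb4: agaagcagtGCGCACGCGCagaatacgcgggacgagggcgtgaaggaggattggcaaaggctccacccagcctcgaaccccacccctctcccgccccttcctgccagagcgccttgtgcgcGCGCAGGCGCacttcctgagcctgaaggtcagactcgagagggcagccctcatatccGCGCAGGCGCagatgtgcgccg
Sdha: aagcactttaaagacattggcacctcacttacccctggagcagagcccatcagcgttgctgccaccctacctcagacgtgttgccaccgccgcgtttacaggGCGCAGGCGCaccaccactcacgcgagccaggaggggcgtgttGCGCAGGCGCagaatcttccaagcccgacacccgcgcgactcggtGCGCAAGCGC
Uqcr11: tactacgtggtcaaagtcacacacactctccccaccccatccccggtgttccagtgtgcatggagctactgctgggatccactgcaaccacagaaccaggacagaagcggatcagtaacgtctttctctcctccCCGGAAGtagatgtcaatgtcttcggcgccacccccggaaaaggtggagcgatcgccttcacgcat
Cox6a1: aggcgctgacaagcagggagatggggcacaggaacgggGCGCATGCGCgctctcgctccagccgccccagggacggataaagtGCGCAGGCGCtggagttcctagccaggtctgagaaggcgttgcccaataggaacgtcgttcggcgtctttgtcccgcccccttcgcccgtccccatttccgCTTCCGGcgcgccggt
Atp5h: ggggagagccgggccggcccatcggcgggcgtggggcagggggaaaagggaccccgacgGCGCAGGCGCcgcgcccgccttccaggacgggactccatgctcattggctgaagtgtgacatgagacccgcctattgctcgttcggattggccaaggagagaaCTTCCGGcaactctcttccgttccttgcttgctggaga

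The Ndufb4 promoter holds 3 NRF1 words, which begin 191, 79 and 22 bases before the start, and the Sdha promoter holds 3, which begin 98, 55 and 10 bases before it. Cox6a1 has 2 NRF1 words and 1 ETS word, Atp5h has 1 of each, and Uqcr11 has 1 ETS word. Atp5j, with 1 YY1 and 1 ETS word, ties with Atp5h, and Uqcrh, with 1 ETS word, ties with Uqcr11. Over the window from 250 bases before to 50 bases after the start, 67 promoters of 61 members could be read. The NRF1 word, GCGCA and GCGC with any base between them, searched on both strands, was in 26.87% of them and in 4.603% of 32851 promoters of all genes. The ETS word CCGGAAG was in 20.9% of members' promoters and in 8.858% of all, and the YY1 word AANATGGCG in 17.91% and in 2.38%. No promoter held matches that overlap, and 36 of the 61 genes had at least 1 of the 3 words. For general promoter words the shares were closer: the GC box GGGCGG was in 37.31% of members' promoters and 35.66% of all, CCAAT in 38.81% and 37.41%, and TATAAA in 8.955% and 13.62%. YY1 words were found in 7 of 30 complex I genes and 4 of 16 complex V genes, and in no gene of complexes II, III and IV that could be read. A match is a run of letters, not a measured binding site.

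Levels per length spanned a wide range among members placed in the same complex by name, as the plot of FPKM by complex shows. The median over members of the mean FPKM was 53.7 for complex I, 59.2 for complex II, 87.0 for complex III, 116 for complex IV and 113 for complex V. The highest level was that of Atp5b, the catalytic beta subunit of the ATP synthase, with a mean of 608 FPKM. Within complex V the levels reached down to 7.44 FPKM for Atp5s, a coupling factor that carries the family name without being a core subunit, so the highest was 81.7 times the lowest. Within complex I they ran from 15.2 FPKM for Ndufa11, a membrane-arm accessory subunit, to 169 FPKM for Ndufa4, which was named for complex I and is now counted with complex IV. The range was narrowest in complex III, from 52.3 FPKM for Uqcrq, a small subunit next to cytochrome b, to 109 FPKM for the core protein Uqcrc1. Complex II ran from 36.9 FPKM for the membrane anchor Sdhc to 117 FPKM for the flavoprotein Sdha. Complex IV ran from 68.9 FPKM for Cox7b, a small membrane subunit, to 302 FPKM for Cox6a1, the isoform of subunit 6a found in most tissues. Cox8a, which has no row in the count table and is thus no member, averaged 462 FPKM. Counts ranked some members otherwise than FPKM did. Ndufa11 had 50.9 CPM with a transcript length of 545 bases, against 15.2 CPM and 568 bases for Ndufs6. Uqcrq had 56.7 CPM with 504 bases, against 28.5 CPM and 445 bases for Uqcr11.

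**Figure D1:**
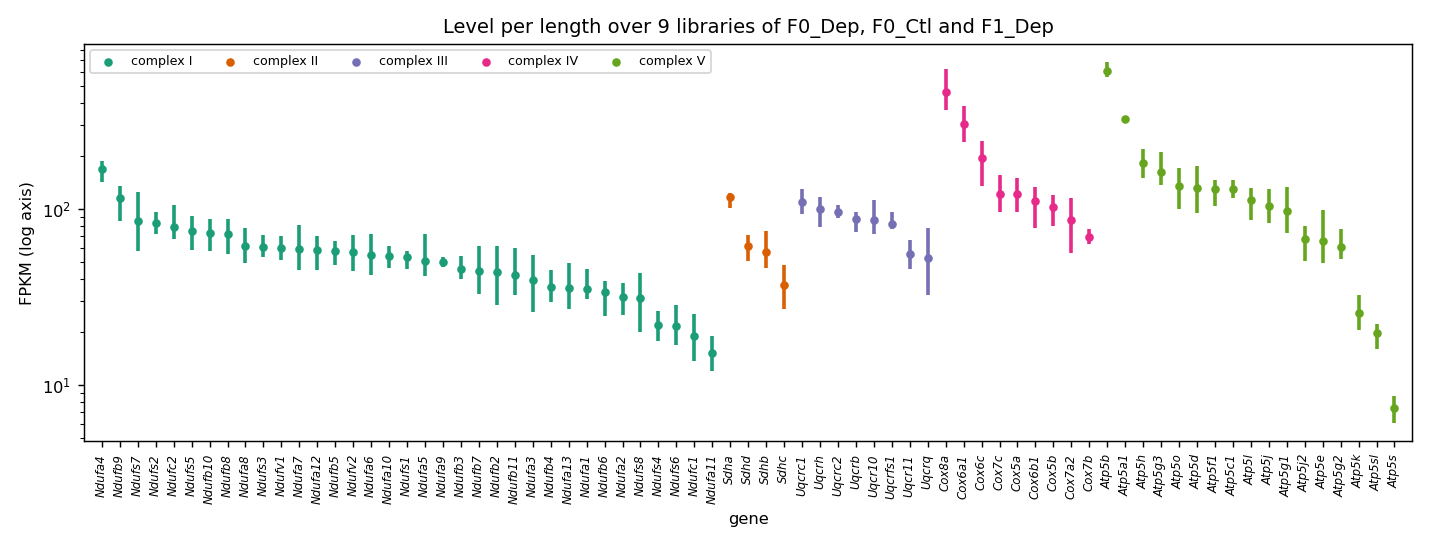
Level per transcript length of each gene in FPKM on a log axis, grouped by complex. Points are means over the 9 libraries of F0_Dep, F0_Ctl and F1_Dep and lines run from the lowest to the highest library. Atp5b stands highest with a mean of 608 FPKM and Atp5s lowest with 7.44 FPKM.

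The minimum of 5 CPM left out 6 matching names, and 5 of them are isoforms of complex IV known from heart and muscle or from testis. Mean levels in counts were 0.116 CPM for Cox7b2, 0.645 CPM for the muscle isoform Cox7a1, 0.672 CPM for the muscle isoform Cox8b, 1.34 CPM for Ndufv3, 1.80 CPM for Cox6b2 and 1.98 CPM for the muscle isoform Cox6a2. The members nearest above the minimum were Atp5k with 10.7 CPM and Atp5s with 14.4 CPM. Ndufv3, an accessory subunit of the NADH-binding part of complex I, had a mean of 38.4 FPKM, so it was low in counts and not in FPKM. Cox8b was listed in FPKM at 1.22, 2.75 and 1.36 in F1_Dep, at 0.192, 0 and 0 in F0_Dep and at 0, 0.164 and 2.17 in F0_Ctl. Replicate 3 of F0_Ctl, the highest of its group for Cox8b, was also the highest of it in choroid plexus markers.

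Both remaining names, Ndufs8 and Cox8a, were in the FPKM tables and matched no ID of the count table. Ndufs8, an iron-sulfur core subunit of complex I, had 25.6, 21.4 and 19.95 FPKM in F0_Dep and 41.9, 31.8 and 43.1 FPKM in F0_Ctl, with no overlap. Its log2 fold change in FPKM was -0.77 ± 0.13 (SE), and it fell by limma's test (adjusted p = 0.00916). Cox8a, the isoform of subunit 8 outside muscle, averaged 397 ± 29.3 FPKM in F0_Dep and 515 ± 133 FPKM in F0_Ctl (SD, n = 3 each), and the adjusted p from limma was 0.166. Here and below, fold changes in FPKM are on the log2(FPKM + 1) scale.

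Members varied together from library to library, as the heat map of the members by library shows. On the log2 CPM scale, with each gene centred on its mean over the 12 libraries, the median over the members was -0.13, -0.19 and -0.28 in the F0_Dep libraries and 0.19, -0.16 and 0.04 in the F0_Ctl libraries. It was -0.00, -0.12 and -0.06 in the F1_Dep libraries and -0.11, 0.39 and 0.48 in the F1_Ctl libraries. All 3 F0_Dep libraries and all 3 F1_Dep libraries were thus at or below the mean, while replicate 2 of F0_Ctl and replicate 1 of F1_Ctl lay with them. The third F1_Ctl library was the highest of the 12 for 49 members and the second F1_Ctl library for 17. The third F0_Dep library was the lowest of the 12 for 34 members and the second F0_Ctl library for 21. Members took 0.558 to 0.602% of all counts in F0_Dep and 0.589 to 0.703% in F0_Ctl, and 0.609 to 0.658% in F1_Dep and 0.612 to 0.815% in F1_Ctl.

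**Figure D2:**
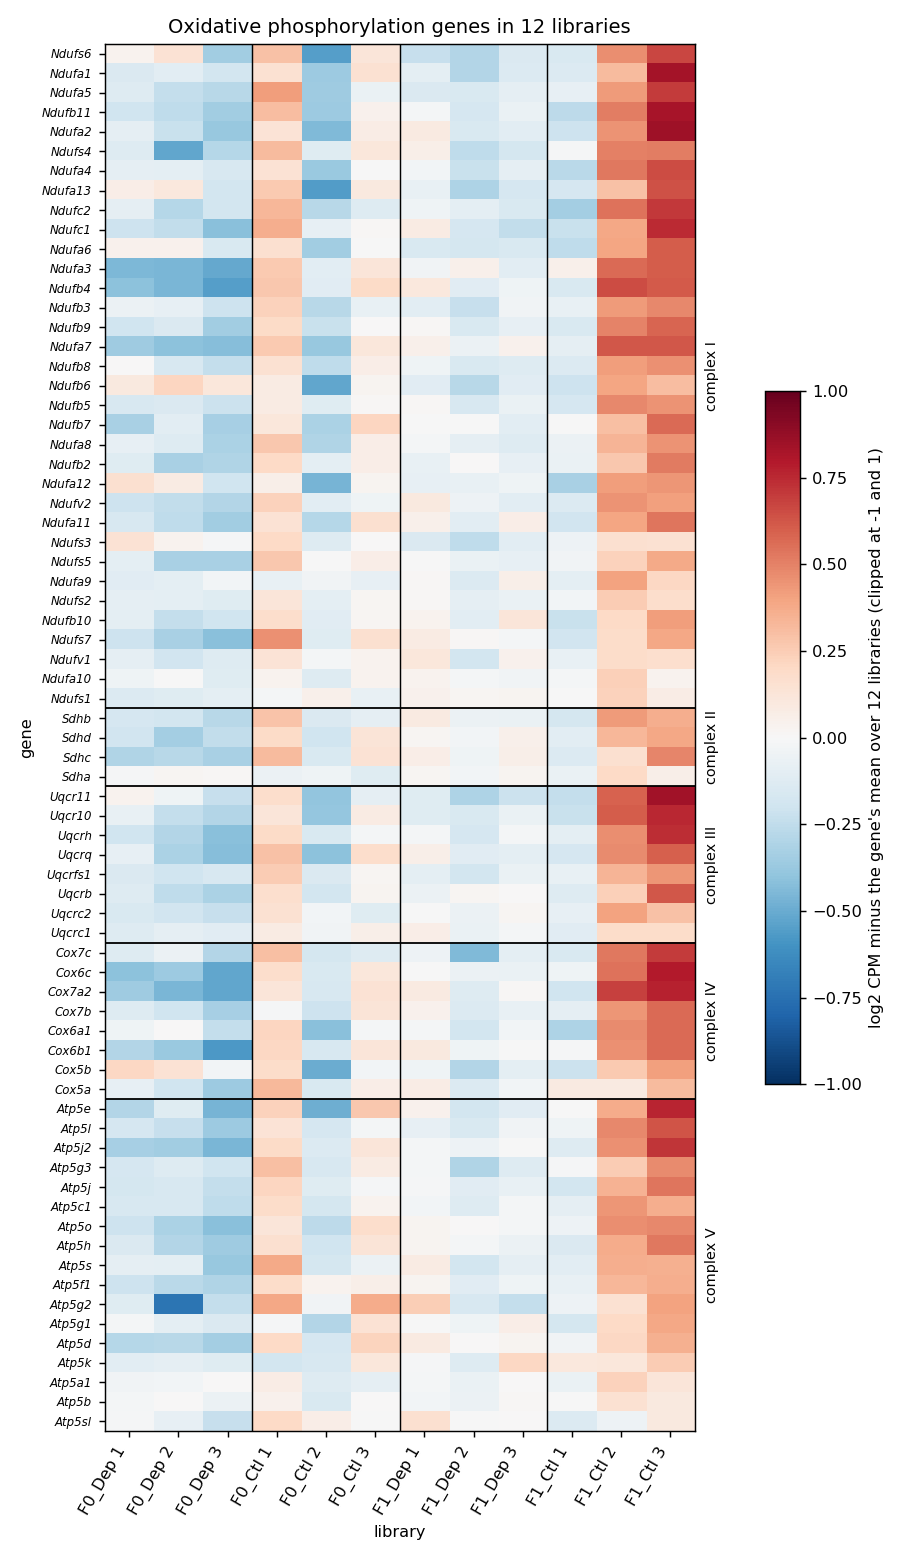
Log2 CPM of each of the 71 members (rows, by complex) in each of the 12 libraries (columns, by group), centred on the member's mean over the libraries. Within a complex, rows are ordered by the fold change of F1_Dep against F1_Ctl. Replicates 2 and 3 of F1_Ctl stand high for most rows, and the 3 F0_Dep libraries stand low.

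Subunits differed in how far they took part in this variation. The distance from the lowest to the highest of the 12 libraries had a median over members of 0.89 on the log2 scale, and ran from 0.30 for Atp5b to 1.32 for Cox6c, a membrane subunit of complex IV. Near the narrow end stood 0.31 for Uqcrc1, 0.32 for Sdha, 0.36 for Atp5a1, the alpha subunit of the ATP synthase, and 0.36 for Ndufs1, the largest iron-sulfur subunit of complex I. The small membrane subunit Atp5k was also among the narrower, with 0.44. Next to the widest came 1.29 for Ndufa2, an accessory subunit of complex I, and 1.29 for Cox7a2, the isoform of subunit 7a found outside heart and muscle, followed by 1.25 for Atp5e, the epsilon subunit of the ATP synthase, and 1.23 for Uqcr11, the smallest subunit of complex III. Transcript lengths were 1653 to 2900 bases for Atp5b, Uqcrc1, Sdha, Atp5a1 and Ndufs1, and 321.5 bases for Atp5k. For Cox6c, Ndufa2, Cox7a2, Atp5e and Uqcr11 they were 421 to 659 bases. The part of transcript length in these distances was not tested. By complex, the median distance was 0.90 for complex I, 0.71 for complex II, 0.98 for complex III, 1.06 for complex IV and 0.75 for complex V.

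**Figure D3:**
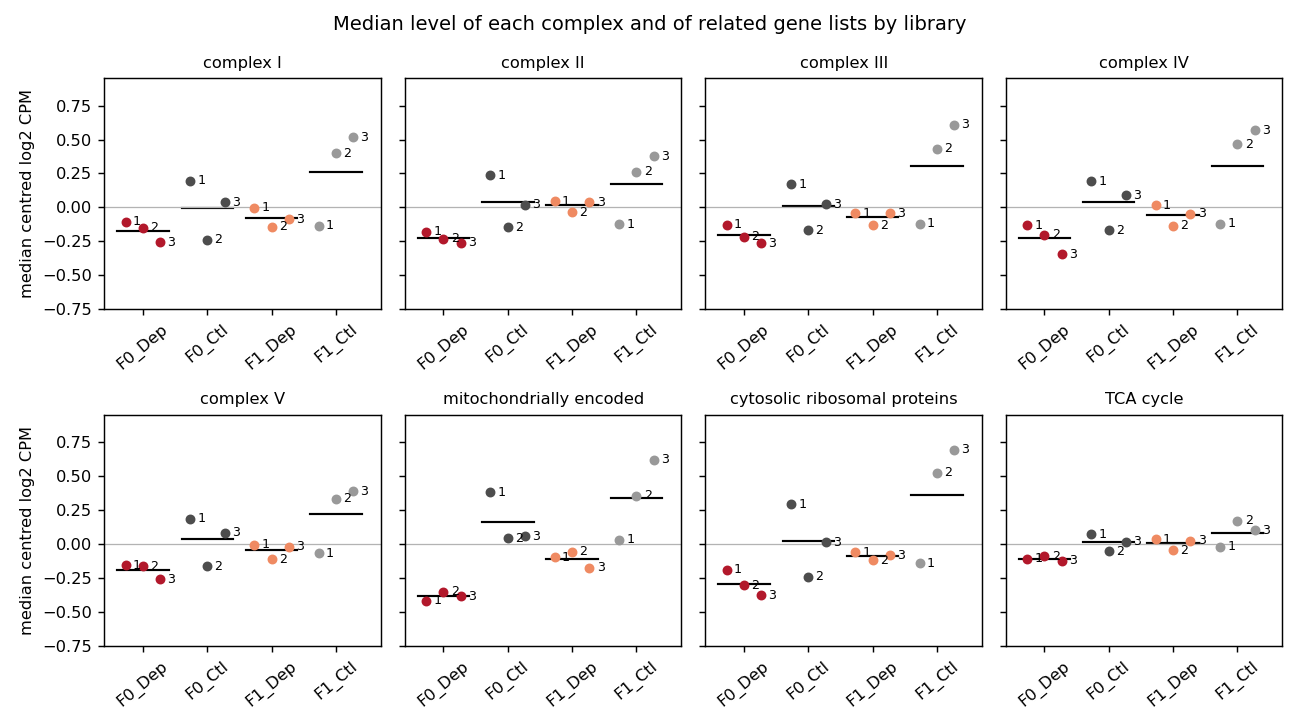
Median over genes of centred log2 CPM in each library, for complexes I to V, the mitochondrially encoded subunits, cytosolic ribosomal proteins and the tricarboxylic acid cycle. Numbers mark replicates and bars the mean of a group. F0_Dep means lie below F0_Ctl means in each panel for complexes I to V, and replicate 1 of F1_Ctl lies far below the other two F1_Ctl libraries.

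The first comparison asks how the stress-induced depressive state of the animals themselves relates to these transcripts. Most members stood lower in F0_Dep than in F0_Ctl by a small amount in counts, and none passed edgeR's test there, while some were called by DESeq2 and voom or fell in FPKM. In counts, 61 of the 71 members had a log2 fold change below 0, as did 54.6% of all genes tested, and the median was -0.22, against -0.035 for all genes. Replicate 1 of F0_Ctl decided part of this, since the median was -0.11 without it and -0.31 without replicate 2 of F0_Ctl. By edgeR's quasi-likelihood test, 0 of 71 members passed an adjusted p of 0.05, as did 0.494% of all genes. At an unadjusted p under 0.05 there were 18 lower members and 0 higher members, beside 9.39% and 10.3% of all genes. DESeq2 called 5 members lower (1.91% of all genes) and voom called 1 (0.847%). By limma on FPKM, 24 of the 71 members fell and none rose, where 10.8% of all genes fell and 10.4% rose, and the median log2 fold change in FPKM was -0.30, against -0.023 for all genes. The 24 were 10 of complex I, 2 of complex II, 3 of complex III, 3 of complex IV and 6 of complex V.

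**Figure D4:**
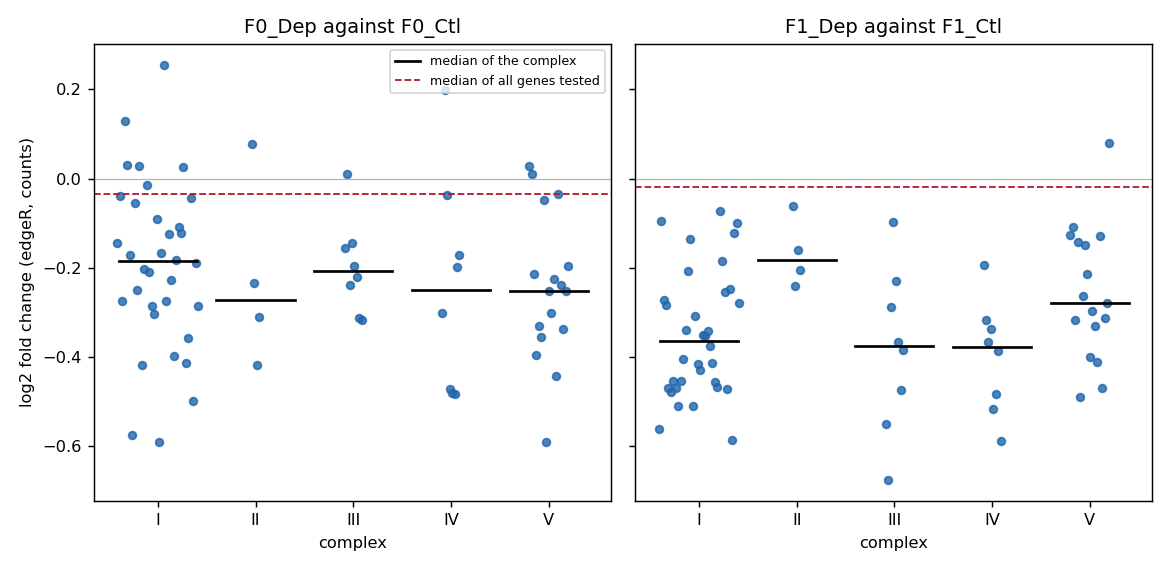
Log2 fold change in counts of each member (points), by complex, for F0_Dep against F0_Ctl and for F1_Dep against F1_Ctl. Black bars are the medians of a complex and the red dashed line is the median of all genes tested. Medians of the 5 complexes lie between -0.27 and -0.19 in the first comparison and between -0.38 and -0.18 in the second.

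In complex I the median log2 fold change in counts was -0.19, with 29 of 34 members lower. Ndufa3, an accessory subunit of the membrane arm (ENSMUSG00000035674, chromosome 7, 3617373 to 3620327, plus strand), had 15.6, 15.5 and 14.9 CPM in F0_Dep and 25.6, 19.9 and 23.2 CPM in F0_Ctl. Each F0_Dep library was below each F0_Ctl library, and the log2 fold change was -0.57 ± 0.15 (SE) with an edgeR adjusted p of 0.0810. In FPKM, Ndufa3 had 26.7, 27.5 and 25.8 in F0_Dep and 51.3, 40.7 and 54.8 in F0_Ctl, and fell by 0.84 on the log2 scale (adjusted p = 0.00760 by limma). Its call in counts depended on the setting: over 21 alternatives in counts the adjusted p ran from 0.0157 to 0.284, and it passed in 3 of them, DESeq2, voom and the fit without replicate 1 of F1_Ctl. An exon of Ndufa3 overlaps Tfpt on the other strand, and the sources used here do not say whether reads were counted by strand.

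Ndufs7, the iron-sulfur subunit next to the quinone site (ENSMUSG00000020153, chromosome 10, 80249121 to 80256794, plus strand), had 68.1, 59.3 and 57.9 FPKM in F0_Dep and 125, 80.9 and 109 FPKM in F0_Ctl. The groups did not overlap, and it fell by 0.73 in FPKM (adjusted p = 0.0114 by limma). In counts its log2 fold change was -0.50 ± 0.16 (SE), with an edgeR adjusted p of 0.122. Ndufv1, which binds NADH and the flavin, had 54.1, 51.5 and 51.7 FPKM in F0_Dep and 69.0, 62.8 and 69.7 FPKM in F0_Ctl. It fell by 0.35 in FPKM (adjusted p = 0.0272 by limma), with no overlap. For the core subunit Ndufs1, counts and FPKM differed in direction. Ndufs1 had 135, 137 and 138 CPM in F0_Dep and 147, 154 and 141 CPM in F0_Ctl, without overlap, and 55.0, 54.7 and 54.1 FPKM in F0_Dep and 45.3, 57.4 and 47.7 FPKM in F0_Ctl, with overlap. The log2 fold change was -0.11 in counts and 0.13 in FPKM, neither past the test.

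Ndufb6, an accessory subunit of the membrane arm (ENSMUSG00000071014, chromosome 4, 40270591 to 40279421, minus strand), stood higher in counts. It had 23.6, 25.6 and 23.9 CPM in F0_Dep and 23.4, 15.4 and 22.5 CPM in F0_Ctl, so that each F0_Dep library was above each F0_Ctl library. The log2 fold change was 0.26 ± 0.17 (SE), with an edgeR adjusted p of 0.439. Ndufb6 overlaps an exon of Smim27 on the other strand. Over all members, 25 had each F0_Dep library below each F0_Ctl library and 2, Ndufb6 and Sdha, had each above, where 13.7% and 13.7% of all genes did.

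In complex II, 2 of 4 members fell in FPKM and Sdha stood slightly higher. Sdhc, a membrane anchor (ENSMUSG00000058076, chromosome 1, 171127165 to 171150603, minus strand), had 26.9, 28.0 and 27.7 FPKM in F0_Dep and 44.1, 35.8 and 48.1 FPKM in F0_Ctl. It fell by 0.60 in FPKM (adjusted p = 0.00916 by limma), and its log2 fold change in counts was -0.42 ± 0.15 (edgeR adjusted p = 0.158). The iron-sulfur subunit Sdhb had 49.4, 48.0 and 45.9 FPKM in F0_Dep and 74.98, 54.9 and 61.5 FPKM in F0_Ctl, and fell by 0.40 in FPKM (adjusted p = 0.0343 by limma). For both, no F0_Dep library reached the lowest F0_Ctl library. Sdha, the flavoprotein that oxidises succinate, had 326, 333 and 332 CPM in F0_Dep and 316, 320.0 and 302 CPM in F0_Ctl. Its log2 fold change was 0.08 ± 0.08 (edgeR adjusted p = 0.615), with F0_Dep above F0_Ctl in each library.

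In complex III no member had an unadjusted p under 0.05 in counts, where the median log2 fold change was -0.21, and 3 members fell in FPKM. Uqcrc1, a core protein of the matrix side, had 95.5, 96.2 and 94.0 FPKM in F0_Dep and 122, 112 and 129 FPKM in F0_Ctl. It fell by 0.34 in FPKM (adjusted p = 0.0228 by limma), and the groups did not overlap. Uqcrfs1, the Rieske iron-sulfur protein, had 91.8, 88.5 and 90.8 CPM in F0_Dep and 121, 91.7 and 103 CPM in F0_Ctl, which overlap. Its log2 fold change was -0.22 ± 0.13 (edgeR adjusted p = 0.380).

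Complex IV had a median log2 fold change of -0.25 in counts. Cox6b1, which faces the intermembrane space (ENSMUSG00000036751, chromosome 7, 30616861 to 30626151, minus strand), had 65.0, 61.4 and 53.4 CPM in F0_Dep and 91.5, 71.2 and 86.5 CPM in F0_Ctl. F0_Dep was below F0_Ctl in each library, and the log2 fold change was -0.47 ± 0.15 (edgeR adjusted p = 0.120). Cox6c (ENSMUSG00000014313, chromosome 15, 35925886 to 35938246, minus strand) had 158, 161 and 135 FPKM in F0_Dep and 232, 194 and 243 FPKM in F0_Ctl, and fell by 0.56 in FPKM (adjusted p = 0.0107 by limma). Cox7a2 had 65.98, 61.3 and 56.1 FPKM in F0_Dep and 104, 89.3 and 115 FPKM in F0_Ctl, and fell by 0.74 in FPKM (adjusted p = 0.00811 by limma). Neither Cox6c nor Cox7a2 overlapped between the groups. Cox5b, a matrix-side subunit, went the other way in counts, with 103, 98.7 and 87.5 CPM in F0_Dep and 102, 63.3 and 87.5 CPM in F0_Ctl. The fold change was 0.20 ± 0.18 on the log2 scale (edgeR adjusted p = 0.566). Cox5a, the other subunit 5, had a log2 fold change of -0.30 ± 0.13 (edgeR adjusted p = 0.215), and Cox6a1 one of -0.04 ± 0.21 (0.864).

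In complex V, 15 of 17 members were lower in counts, with a median log2 fold change of -0.25. Atp5d, the delta subunit of the rotating stalk (ENSMUSG00000003072, chromosome 10, 80138632 to 80145818, plus strand), had 101, 101 and 96.9 CPM in F0_Dep and 141, 109 and 143 CPM in F0_Ctl. The groups did not overlap, and the log2 fold change was -0.40 ± 0.12 (edgeR adjusted p = 0.114). Atp5f1, subunit b of the outer stalk (ENSMUSG00000000563, chromosome 3, 105942698 to 105960099, minus strand), had 189, 181 and 177 CPM in F0_Dep and 248, 223 and 228 CPM in F0_Ctl. They did not overlap either, and the log2 fold change was -0.36 ± 0.11 (edgeR adjusted p = 0.120). Both fell in FPKM, Atp5d by 0.65 (adjusted p = 0.00961) and Atp5f1 by 0.36 (adjusted p = 0.0137), by limma.

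Atp5b and Atp5a1, the beta and alpha subunits, differed by less than the spread between replicates of F0_Ctl. Atp5b had 893, 906 and 868 CPM in F0_Dep and 929, 811 and 907 CPM in F0_Ctl, with a log2 fold change of 0.01 ± 0.08 (edgeR adjusted p = 0.957). Atp5a1 averaged 358 ± 4.39 CPM in F0_Dep and 351 ± 26.3 CPM in F0_Ctl (SD, n = 3 each), with a log2 fold change of 0.03 ± 0.09 (0.894). The 3 genes Atp5g1, Atp5g2 and Atp5g3 encode the same mature subunit c of the rotor, and their log2 fold changes in counts were -0.05 ± 0.14, -0.59 ± 0.19 and -0.25 ± 0.14, none past edgeR's test. Atp5g2 had 16.6, 10.9 and 15.3 CPM in F0_Dep and 23.5, 17.6 and 23.2 CPM in F0_Ctl, without overlap. In FPKM, Atp5g3 fell by 0.38 (adjusted p = 0.0432 by limma), and Atp5g2 had a log2 fold change of -0.24 (adjusted p = 0.156).

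**Figure D5:**
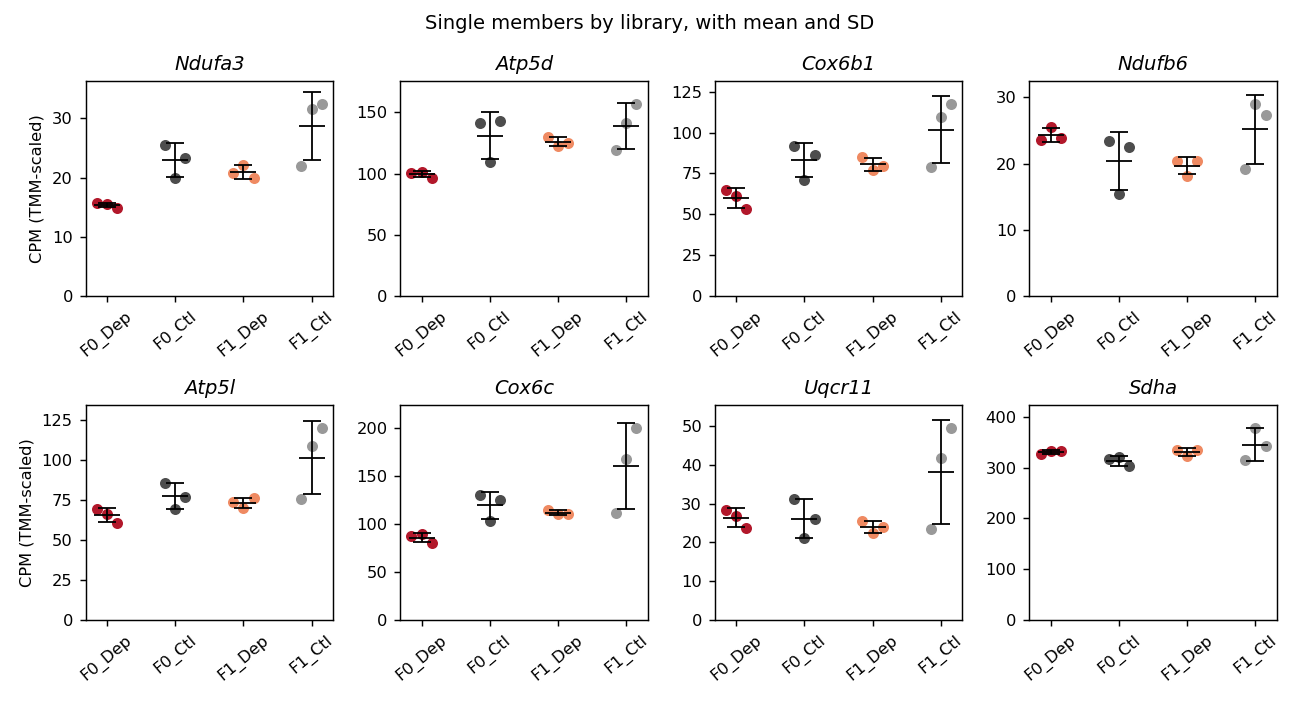
CPM of 8 members in the 12 libraries, with points for libraries and bars for the mean and SD of a group (n = 3). Ndufa3, Atp5d and Cox6b1 have each F0_Dep library below each F0_Ctl library, Ndufb6 and Sdha have each above, and replicate 1 of F1_Ctl is the lowest of its group in all 8 panels.

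The comparison of offspring asks how descent from a depressed father relates to these transcripts. All but 1 of the members stood lower in F1_Dep than in F1_Ctl in counts, and none passed edgeR's test. Log2 fold changes were below 0 for 70 of the 71 members, as for 53.1% of all genes, and the median was -0.34, against -0.019 for all genes. By edgeR, 0 members passed an adjusted p of 0.05, as did 0.167% of all genes. At an unadjusted p under 0.05 there were 33 lower members and 0 higher ones, beside 8.49% and 6.32% of all genes. DESeq2 called 0 members (1.76% of all genes lower and 1.59% higher), and voom, which weights libraries by their fit, called 39 lower and 0 higher, beside 5.56% and 3.81% of all genes. By complex, the medians were -0.36 for complex I, -0.18 for complex II, -0.38 for complex III, -0.38 for complex IV and -0.28 for complex V.

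Replicate 1 of F1_Ctl set what passed. It was above each F1_Dep library for 4 members, while replicate 2 was so for 68 and replicate 3 for 70. Without replicate 1 of F1_Ctl, the median was -0.49 and edgeR called 31 members lower (2.55% of all genes). Without replicate 3 the median was -0.19, without replicate 2 it was -0.24, and edgeR called 0 members in both fits. Of all genes, the fit without replicate 3 called 0.0728% lower and 0.0607% higher, and that without replicate 2 called 0% either way. The 4 members without overlap were Ndufa5, Ndufs3, Cox5a and Atp5g3, all lower in F1_Dep, where 10.3% of all genes were lower without overlap and 8.72% were higher. Without replicate 3 of F0_Ctl, replicate 3 of F1_Ctl and replicate 1 of F1_Dep together, the median was -0.27, with 0 members called by edgeR (0.516% of all genes lower and 1.54% higher). This does not remove neighbouring tissue, since on the log2 scale the centred level of choroid plexus markers was 2.73 and 2.66 in the F1_Dep libraries kept, against 2.63 in the F0_Ctl library left out.

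The smallest p-value among members was that of Atp5l, subunit g of the membrane part of the ATP synthase (ENSMUSG00000038717, chromosome 9, 44912557 to 44920742, minus strand). Atp5l had 73.5, 69.9 and 76.1 CPM in F1_Dep and 75.7, 109 and 120.1 CPM in F1_Ctl. Replicate 1 of F1_Ctl lay among the F1_Dep libraries, and the log2 fold change was -0.47 ± 0.15 (edgeR adjusted p = 0.174). Ndufa3 had 20.8, 22.1 and 19.8 CPM in F1_Dep and 22.0, 31.6 and 32.4 CPM in F1_Ctl, with a log2 fold change of -0.45 ± 0.14 (0.182). Cox6c had 115, 111 and 110.0 CPM in F1_Dep and 112, 168 and 199.9 CPM in F1_Ctl, with a log2 fold change of -0.52 ± 0.17 (0.195). In both, replicate 1 of F1_Ctl lay within the range of F1_Dep.

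In complex III, Uqcr11 (ENSMUSG00000020163, chromosome 10, 80402997 to 80406830, minus strand) had 25.4, 22.4 and 23.9 CPM in F1_Dep and 23.4, 41.7 and 49.6 CPM in F1_Ctl. Its log2 fold change was -0.68 ± 0.23 (edgeR adjusted p = 0.205), and the groups overlapped through replicate 1 of F1_Ctl. Uqcrfs1 had 94.9, 89.4 and 96.7 CPM in F1_Dep and 96.1, 129 and 138 CPM in F1_Ctl, with a log2 fold change of -0.37 ± 0.13 (0.228). Among core subunits of complex I, Ndufs3 had 31.2, 28.9 and 32.0 CPM in F1_Dep and 33.3, 38.4 and 38.3 CPM in F1_Ctl, with no overlap. Its log2 fold change was -0.26 ± 0.10 (edgeR adjusted p = 0.272).

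Some members had small fold changes between the offspring groups. Sdha had 334, 322 and 335 CPM in F1_Dep and 315, 378 and 342 CPM in F1_Ctl, with a log2 fold change of -0.06 ± 0.08 (edgeR adjusted p = 0.778). Ndufs1 had a log2 fold change of -0.07 ± 0.08 (0.720), Uqcrc1 one of -0.10 ± 0.09 (0.663) and Atp5b one of -0.11 ± 0.08 (0.595). The one member above 0 was Atp5sl, annotated as Dmac2 and known for complex I assembly rather than as an ATP synthase subunit. Atp5sl had 32.7, 29.2 and 29.4 CPM in F1_Dep and 26.7, 28.3 and 31.4 CPM in F1_Ctl, with a log2 fold change of 0.08 ± 0.10 (edgeR adjusted p = 0.767).

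Both own-control comparisons share no library, though they come from 1 fit. Log2 fold changes were below 0 in both for 60 members and above 0 in both for 0. The share of all genes below 0 in both was not counted, and 54.6% and 53.1% were below 0 in each alone. Of 78 ribosomal protein genes, 77 and 78 were below 0. No member was lower without overlap in both. The share of all genes lower without overlap in both was not counted either, so the members' count has no measure beside it. In each comparison alone, 13.7% and 10.3% of all genes were. The difference between the 2 fold changes was tested as an interaction, in which edgeR called 0 members and 0.068% of all genes. The difference was below 0 for 49 of 71 members, as for 49.7% of all genes. Its median was -0.10, against 0.0024 for all genes, and it was 0.03 without replicate 3 of F1_Ctl. At an unadjusted p under 0.05 there was 1 member, Ndufb6, beside 7.41% of all genes lower and 6.01% higher, and DESeq2 and voom called 0 members. Over all genes, DESeq2 called 2% lower and 1.03% higher, and voom 1.22% lower and 0.964% higher. Ndufb6 had 20.5, 18.2 and 20.4 CPM in F1_Dep and 19.2, 29.0 and 27.3 CPM in F1_Ctl. The difference of its fold changes was -0.61 ± 0.25 on the log2 scale (edgeR adjusted p = 0.309). For Uqcr11 it was -0.69 ± 0.32 (0.380), and for Ndufs7 it was 0.38 ± 0.22 (0.489).

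Set against the stressed males, the offspring of such males stood higher for most members. In F1_Dep against F0_Dep, 58 of 71 members had log2 fold changes above 0, as did 50.8% of all genes, with a median of 0.16, against 0.0062 for all genes. By edgeR, 0 members passed, where 2.87% of all genes did. At an unadjusted p under 0.05 there were 7 higher members and 0 lower ones, beside 11.3% and 11% of all genes. DESeq2 called 0 members (4.49% of all genes higher and 4.8% lower), voom called 18 higher (15.4% of all genes) and 2 lower (14.4%), and a fit on those 2 groups alone called 16 members higher (12.6%) and 1 lower (11.4%). In FPKM, 11 members rose and none fell, where 7.22% of all genes rose and 4.76% fell. Members without overlap were 31 higher and 4 lower, beside 22.6% and 20.3% of all genes.

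This comparison uses the same F0_Dep libraries as that of F0_Dep against F0_Ctl. Ndufa3 had 42.1, 44.0 and 39.9 FPKM in F1_Dep and 26.7, 27.5 and 25.8 FPKM in F0_Dep, and rose by 0.64 (adjusted p = 0.0123 by limma). Cox7a2 had 102, 86.0 and 97.3 FPKM in F1_Dep and 65.98, 61.3 and 56.1 FPKM in F0_Dep, and rose by 0.63 (adjusted p = 0.0136 by limma). Sdhc had 41.7, 39.9 and 40.3 FPKM in F1_Dep and 26.9, 28.0 and 27.7 FPKM in F0_Dep, and rose by 0.54 (adjusted p = 0.0152 by limma). None of these 3 overlapped between the groups. In counts, Cox6b1 had 84.9, 77.3 and 79.4 CPM in F1_Dep and 65.0, 61.4 and 53.4 CPM in F0_Dep, with a log2 fold change of 0.43 ± 0.15 (edgeR adjusted p = 0.120). Atp5d had a log2 fold change of 0.34 ± 0.12 in counts (edgeR adjusted p = 0.125) and rose by 0.49 in FPKM (adjusted p = 0.0275 by limma). Against the trend, Ndufs3 had a log2 fold change of -0.22 ± 0.10 in counts, Ndufb6 one of -0.31 ± 0.17 and Cox5b one of -0.25 ± 0.18, with edgeR adjusted p of 0.226, 0.315 and 0.428.

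Against the normal males, the offspring of depressed males stood close to them for most members. In F1_Dep against F0_Ctl the median log2 fold change was -0.07, against -0.015 for all genes, with 62 of 71 members below 0 beside 52.5% of all genes. By edgeR, 0 members and 0% of all genes passed, and 0 members had an unadjusted p under 0.05, beside 6.3% of all genes lower and 6.55% higher. DESeq2, voom and limma on FPKM also called 0 members. Over all genes, DESeq2 called 0.995% lower and 1.54% higher, voom 0.0371% and 0.0433%, and limma on FPKM 0.123% and 0.145%. Without replicate 1 of F0_Ctl the median was 0.03. Atp5f1 was lower without overlap and Sdha higher without overlap, where 10.5% and 9.09% of all genes were. The smallest p-value was that of Ndufs3, with a log2 fold change of -0.20 ± 0.10 (edgeR adjusted p = 0.452).

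Between the control groups, F1_Ctl stood higher than F0_Ctl for 68 of 71 members, beside 54% of all genes, with a median log2 fold change of 0.26, against 0.020 for all genes. By edgeR, DESeq2 and voom, 0 members passed, and 0% of all genes did. At an unadjusted p under 0.05 there were 9 higher members and 0 lower ones, beside 2.82% and 3.07% of all genes, and no member was without overlap, beside 2.72% higher and 3.35% lower. Without replicate 1 of F1_Ctl, 12 members were called higher (0.928% of all genes) and the median was 0.43, and without replicate 3 it was 0.13. Uqcr11 had 23.4, 41.7 and 49.6 CPM in F1_Ctl and 31.3, 21.1 and 26.1 CPM in F0_Ctl. This gave a log2 fold change of 0.55 ± 0.23 (edgeR adjusted p = 0.751). This comparison and that of F1_Dep against F1_Ctl use the same F1_Ctl libraries.

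A list of 9 subunit genes that the name pattern misses includes Cox4i1 of complex IV, Cyc1 of complex III and cytochrome c itself (Cycs). In F0_Dep against F0_Ctl all 9 were below 0 (54.6% of all genes), with a median log2 fold change of -0.19. By limma 4 fell in FPKM (10.8% of all genes). By edgeR 0 of them passed (0.494%), with 2 lower at an unadjusted p under 0.05 (9.39%). In F1_Dep against F1_Ctl, 7 of 9 were below 0 (53.1% of all genes), with a median of -0.25. By edgeR 0 passed (0.167%), with 3 lower at an unadjusted p under 0.05 (8.49%). Atpif1, the inhibitor of the ATP synthase, averaged 58.2 ± 2.62 CPM in F1_Dep and 80.6 ± 18.4 CPM in F1_Ctl (SD, n = 3 each), with a log2 fold change of -0.47 ± 0.15 (edgeR adjusted p = 0.175).

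Of 45 assembly factors, 1 passed in counts in F0_Dep against F0_Ctl, where 0.494% of all genes did. Bcs1l, which inserts the Rieske protein Uqcrfs1 into complex III, averaged 11.8 ± 0.698 CPM in F0_Dep and 18.6 ± 0.912 CPM in F0_Ctl (SD, n = 3 each), with no overlap. It fell by 0.66 on the log2 scale (SE 0.10, edgeR adjusted p = 0.0310), and by 0.70 in FPKM (adjusted p = 0.00765 by limma). In F1_Dep, Bcs1l averaged 16.6 ± 1.13 CPM, and it rose by 0.50 against F0_Dep (edgeR adjusted p = 0.0334). Against F1_Ctl, which averaged 16.3 ± 0.406 CPM, its log2 fold change was 0.03 ± 0.10 (0.930). Over the 45 factors, 31 were below 0 in F0_Dep against F0_Ctl (54.6% of all genes), with a median of -0.13. In FPKM 10 fell and 1 rose by limma, where 10.8% and 10.4% of all genes did. The copper chaperone Cox17 fell by 0.73 in FPKM (adjusted p = 0.00932 by limma). Between the offspring groups, 34 of 45 were below 0 (53.1% of all genes), with a median of -0.16. None passed edgeR's test (0.167%), with 12 lower at an unadjusted p under 0.05 (8.49%).

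The 13 mitochondrially encoded subunits also stood lower in both own-control comparisons. They and the other mitochondrially encoded genes took 5.17 ± 0.125% of counts in F0_Dep and 8.26 ± 0.862% in F0_Ctl, and 6.96 ± 0.242% in F1_Dep and 9.20 ± 1.74% in F1_Ctl (SD, n = 3 each). In F0_Dep against F0_Ctl, 12 of 13 were below 0 (54.6% of all genes), with a median log2 fold change of -0.56 in counts. By edgeR mt-Co2 and mt-Nd6 passed, where 0.494% of all genes did. In FPKM the median was -0.24, with 2 fallen and 2 risen by limma (10.8% and 10.4% of all genes). mt-Co2, a catalytic subunit of complex IV, averaged 1360 ± 423 CPM in F0_Dep and 7983 ± 1359 CPM in F0_Ctl, a log2 fold change of -2.55 ± 0.24 (edgeR adjusted p = 0.000794). In FPKM its log2 fold change was -0.22 (adjusted p = 0.164 by limma). Gm28661 and Gm28437, 2 gene IDs taken here as nuclear copies of mitochondrial sequence, were named after their values were seen. In the F0_Dep libraries they took 4253, 4118 and 4664 CPM and 1455, 1397 and 2303 CPM. The other libraries had at most 0.0900 CPM of either. The shares of counts given above leave both IDs out. Their part in the mt-Co2 value was not tested. In the offspring comparison, 13 of 13 were below 0 (53.1% of all genes), with a median of -0.44. None passed edgeR's test (0.167%), with 12 lower at an unadjusted p under 0.05 (8.49%).

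Known regulators of mitochondrial genes were spread around 0. Of 14 such genes, 7 were below 0 in F0_Dep against F0_Ctl (54.6% of all genes), with a median of -0.0016. In F1_Dep against F1_Ctl 4 were below 0 (53.1%), with a median of 0.037. By edgeR 0 passed in either (0.494% and 0.167% of all genes). At an unadjusted p under 0.05, 1 was lower and 2 were higher in the first (9.39% and 10.3% of all genes). In the second 1 was lower (8.49%). Tfam, which packages and transcribes mitochondrial DNA, had a log2 fold change of -0.24 in F1_Dep against F1_Ctl, and Ppargc1a, a coactivator of respiratory genes, one of 0.24.

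Genes outside the mitochondria with short transcripts were mostly below 0 too. Of the 78 genes of cytosolic ribosomal proteins, 77 were below 0 in F0_Dep against F0_Ctl (54.6% of all genes). Their median log2 fold change was -0.33. In F1_Dep against F1_Ctl 78 of these genes were below 0 (53.1% of all genes), with a median of -0.50. Their median centred level was 0.29, -0.24 and 0.01 in F0_Ctl libraries and -0.14, 0.53 and 0.70 in F1_Ctl libraries, so that the same libraries stood high and low as for the members. Members had a median transcript length of 747.5 bases, and 45 of them were under 1000 bases. Among those 45 the median log2 fold change was -0.25 in F0_Dep against F0_Ctl, against -0.22 for 1384 other genes under 1000 bases. Between the offspring groups it was -0.40, against -0.21 for the other genes. In F1_Dep against F0_Dep these medians were 0.18 for members and 0.10 for the other genes. They were -0.09 for both in F1_Dep against F0_Ctl, and 0.32 and 0.14 in F1_Ctl against F0_Ctl. For other genes of 4000 bases and over the medians were 0.14 in F0_Dep against F0_Ctl and 0.05 between the offspring groups. The part of transcript length, ribosomal protein genes and neighbouring tissue in the members' values was not tested. For the 32 members whose counts were whole numbers in each library and whose exons overlap no other gene, the median was -0.23 in F0_Dep against F0_Ctl, with 29 below 0, and -0.35 in F1_Dep against F1_Ctl, with 31 below 0.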

How the data were processed

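Poly(A) RNA of mouse hippocampus was sequenced with a stranded mRNA kit, per the labels' protocols, in 12 libraries, 3 mice in each of 4 groups taken from the labels. The authors made the deposited table of expected counts per gene from the reads of all 12 libraries, and some of its values are not whole. They also deposited FPKM per gene for the 9 libraries used, which divide reads by transcript length and library size. The submitters' processing notes name HISAT2, Cufflinks 2.2.1 and mm10 without saying which made which file. The sources used here do not give the counting tool or its use of strand.

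Expected counts were rounded and fitted with edgeR 4.0.16 in R 4.3.3 (TMM scaling, filterByExpr, quasi-likelihood test, 1 term per group, all 12 libraries), with Benjamini-Hochberg adjustment over 16178 genes and a threshold of 0.05. Whether counts were whole was judged with a tolerance of 1e-06. For FPKM, limma 3.58.1 was run on the log2 of FPKM with a pseudocount of 1, for genes with at least 1 FPKM in at least 3 libraries. CPM uses TMM-scaled library sizes, and log2 CPM a prior count of 2. Counts limit precision through 18277208 to 23083678 reads per library. DESeq2 1.42.0, voom with sample weights, other scalings and filters, a replicate block and leaving out libraries were alternatives. The edgeR fit alone was tried on simulated counts, with each gene drawn on its own. Its limit for recovering planted changes was loosened after the result was seen, so the trial backs no value here. No libraries were duplicates. Positions and overlaps come from GENCODE M21 (GRCm38) and promoters from RefSeq (GRCm38.p6). The labels name no father or litter, so p-values measure the spread between these mice and not between fathers or litters. Within groups, the chi-square distance per gene between replicates 2 and 3 was 5.57 in F0_Dep and 4.87 in F1_Dep. Other pairs of a group had 17.7 to 83.9. The part of this closeness in the p-values was not tested. Of the count table's IDs, 610 carry no symbol.

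Named members are those with the 3 smallest p-values in each direction of a comparison, the highest and lowest mean FPKM of a complex, and 20 core or paralogous subunits. Up to 4 members of a companion list are named by p-value. Others were named where a count of 5 or fewer, a printed promoter or a rank in counts beside FPKM points to them, after their values were seen. Members and lists were chosen with earlier results of these data known.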

Additional observations from a re-analysis of the deposited data

Results flagged for a closer look

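Among the genes compared with the members, 3 were flagged between the generations, 1 by the test of the difference and 2 by library order alone. The share of all genes with such an opposite order was not counted. Alone, 13.7% of all genes were higher without overlap in F0_Dep against F0_Ctl. In F1_Dep against F1_Ctl, 10.3% were lower without overlap. For mt-Co2, a mitochondrially encoded catalytic subunit of complex IV, the log2 fold change of F1_Dep against F1_Ctl minus that of F0_Dep against F0_Ctl was 2.14 (adjusted p = 0.0468 by edgeR's interaction test). It rests on counts: in F0_Dep against F0_Ctl the log2 fold change of mt-Co2 was -2.55 in counts and -0.22 in FPKM. In F0_Dep libraries Gm28661 and Gm28437, taken as nuclear copies of mitochondrial sequence, had 4118 to 4664 CPM and 1397 to 2303 CPM. The other libraries had at most 0.0900 CPM of either. The part of these 2 gene IDs in the mt-Co2 value was not tested. For mt-Atp8, a mitochondrially encoded subunit of the ATP synthase, this difference was -0.93 (adjusted p = 0.0803), with each F0_Dep library above each F0_Ctl library and each F1_Dep library below each F1_Ctl library. For Timm17a, a subunit of the inner membrane import channel, it was -0.32 (adjusted p = 0.231), with the same opposite order of libraries. The last 2 differences did not pass the interaction test.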

How the results depend on the processing

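Medians over the members kept their sign under all alternatives run in F0_Dep against F0_Ctl (-0.31 to -0.11), F1_Dep against F1_Ctl (-0.49 to -0.19), F1_Dep against F0_Dep (0.10 to 0.19) and F1_Ctl against F0_Ctl (0.13 to 0.43). They crossed 0 in F1_Dep against F0_Ctl (-0.17 to 0.03) and in the interaction (-0.24 to 0.03). Calls depended on the test, and the cause was not tested. In F0_Dep against F0_Ctl, 1 member was lower at a threshold of 0.1 (1.4% of all genes lower), 1 with voom (0.847%), 5 with DESeq2 (1.91%), 24 in FPKM (10.8%), 24 in FPKM with a pseudocount of 0.1 (10.9%), 17 in FPKM with no filter (2.98%), and 0 to 6 when 1 library was left out (0.789% for the 6, without replicate 1 of F1_Ctl). In F1_Dep against F1_Ctl, 39 were lower with voom (5.56%) and 0 to 31 when 1 library was left out (2.55% for the 31, without replicate 1 of F1_Ctl). In F1_Dep against F0_Dep, 17 passed with only those groups fitted (12.6% of all genes higher and 11.4% lower), 20 with voom (15.4% and 14.4%), 11 higher in FPKM (7.22% higher), 11 in FPKM with a pseudocount of 0.1 (6.9%), 4 in FPKM with no filter (1.25%), and 0 to 5 higher when 1 library was left out (3.27% for the 5, without replicate 1 of F1_Ctl). In F1_Ctl against F0_Ctl, 0 to 12 were higher when 1 library was left out (0.928% for the 12, without replicate 1 of F1_Ctl).

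Whether the replicate numbers pair the samples is unknown. Correlations of same-numbered deviations ran from -0.18 to 0.14 apart from 0.50 for replicate 3 of F1_Ctl and F0_Ctl. Such correlations cannot settle it, since paired mice need not deviate alike. With a replicate block, 0 members passed in each comparison. Few of all genes did: 0.464% lower and 0.624% higher in F1_Dep against F0_Dep, and at most 0.0618% in either direction elsewhere. The medians with the block were -0.22 in F0_Dep against F0_Ctl, -0.33 in F1_Dep against F1_Ctl, 0.15 in F1_Dep against F0_Dep, -0.07 in F1_Dep against F0_Ctl, 0.26 in F1_Ctl against F0_Ctl and -0.10 in the interaction.

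Some members changed sign in F0_Dep against F0_Ctl, among them Cox7b and Ndufs1, whose log2 fold changes in counts were -0.20 and -0.11. Without TMM scaling, Atp5a1 was at -0.0037, Atp5b at -0.022, Ndufs3 at -0.0041 and Uqcr11 at -0.020. With no filter on low counts, Atp5b was at -0.0016 and Uqcr11 at -0.0025. In FPKM (pseudocount 1, also with no filter, and pseudocount 0.1 second), Atp5b was at -0.0962 and -0.0963, Cox7b at 0.0239 and 0.0242, Ndufs1 at 0.128 and 0.131, Ndufs3 at -0.0995 and -0.101 and Uqcr11 at -0.171 and -0.174. With voom, Cox6a1 was at 0.057 and Ndufa4 at 0.016, and Ndufs7 at 0.071 in F1_Ctl against F0_Ctl. Without replicate 3 of F0_Ctl, replicate 3 of F1_Ctl and replicate 1 of F1_Dep, Atp5g1 was at 0.063 and Atp5k at 0.077. Leaving out 1 library gave ranges across 0 in F0_Dep against F0_Ctl for Atp5a1 (-0.012 to 0.106), Atp5b (-0.046 to 0.065), Atp5g1 (-0.157 to 0.063), Atp5k (-0.076 to 0.077), Cox6a1 (-0.189 to 0.133), Ndufa4 (-0.188 to 0.077), Ndufs3 (-0.048 to 0.135) and Uqcr11 (-0.123 to 0.174). It did so in F1_Dep against F1_Ctl for Atp5g1 (-0.290 to 0.0080), Ndufs1 (-0.124 to 0.032), Ndufs7 (-0.267 to 0.038), Sdha (-0.124 to 0.047) and Sdhc (-0.303 to 0.035), and in F1_Ctl against F0_Ctl for Atp5g2 (-0.208 to 0.030) and Ndufs7 (-0.182 to 0.132). For values of single genes, 1880 were unchanged in direction and call, 91 newly passed and 48 changed sign.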

Other observations

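Enzymes of the tricarboxylic acid cycle, which feed NADH and succinate to the chain, were measured for 17 genes. In F0_Dep against F0_Ctl, 13 had log2 fold changes below 0 with a median of -0.11, and 0 passed edgeR's test, with 1 lower at an unadjusted p under 0.05 (9.39% of all genes) and 2 fallen in FPKM by limma (10.8% of all genes), shares of the 17 near or below those of all genes. In F1_Dep against F1_Ctl, 13 were below 0 with a median of -0.11, and 0 passed edgeR's test, with 1 higher at an unadjusted p under 0.05 (6.32% of all genes). Of 23 genes for mitochondrial import and carriers, 19 were below 0 in F0_Dep against F0_Ctl with a median of -0.13, and 0 passed edgeR's test, with 4 lower and 1 higher at an unadjusted p under 0.05 (9.39% and 10.3% of all genes). In FPKM, 9 of these 23 fell and 2 rose by limma, where 10.8% and 10.4% of all genes did. In F1_Dep against F1_Ctl, 18 were below 0 with a median of -0.16, and 0 passed edgeR's test, with 6 lower at an unadjusted p under 0.05 (8.49% of all genes).

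Summed markers of oligodendrocytes (8 genes) were 2868 to 3188 CPM in F0_Dep and 2166.2 to 6134 CPM in F0_Ctl, and 5941 to 7087 CPM in F1_Dep and 4303 to 7286 CPM in F1_Ctl. Summed general neuron markers (10 genes) were 7483 to 8311 CPM in F0_Dep and 6442 to 7379 CPM in F0_Ctl, and 7150 to 8266 CPM in F1_Dep and 6604 to 8196 CPM in F1_Ctl. Summed pyramidal neuron markers (9 genes) were 959 to 1219 CPM in F0_Dep and 815 to 1691 CPM in F0_Ctl, and 1020.0 to 1448 CPM in F1_Dep and 876 to 1232 CPM in F1_Ctl. Astrocyte markers (8 genes) summed to 4316 to 4673 CPM in F0_Dep and 3036 to 4641 CPM in F0_Ctl, and to 3854 to 4327 CPM in F1_Dep and 3830.3 to 4954 CPM in F1_Ctl. Microglia markers (9 genes) summed to 296 to 322 CPM in F0_Dep and 305 to 474 CPM in F0_Ctl, and to 370.1 to 403 CPM in F1_Dep and 283 to 512 CPM in F1_Ctl. Endothelial markers (7 genes) summed to 198 to 223 CPM in F0_Dep and 238 to 284 CPM in F0_Ctl, and to 211 to 231 CPM in F1_Dep and 183 to 243 CPM in F1_Ctl.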
